A study of Mus musculus with 7 samples.

Results

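A set of 10 genes of the neuronal cytoskeleton and axon was followed in islet RNA of pregnant mice: the filament subunits NEFL, NEFM, INA and PRPH, the microtubule regulators STMN2 and STMN3, the axonal membrane proteins GAP43 and THY1, the motor KIF5A and the ubiquitin hydrolase UCHL1. They were found by matching gene names in the table of 34082 genes, and all 10 had a mean TPM (a share of all transcripts, corrected for length) of at least 0.5, the limit for testing, which 14840 genes passed. STMN2, PRPH and THY1 were chosen because they were lower in one group of these mice, so their difference is given as a description and without a test. The other 7 were taken to see how general that was. Of these 7, NEFL, UCHL1 and KIF5A are also among the genes that the study listed as different between the same mice, while STMN3, NEFM, INA and GAP43 are not.

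Neurons hold their long processes open with neurofilaments, built from light, medium and heavy chains with α-internexin and, in peripheral nerves, peripherin, and with microtubules along which kinesins carry cargo away from the cell body. Islets are supplied by autonomic nerve fibers and contain some neuronal cell bodies, and endocrine cells share part of the neuronal gene program, so a gene of this kind may be read from either in whole islets. In RNA from whole islets, fewer cells of a type and less RNA per cell cannot be told apart.

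The islets came from female C57BL/6 mice on day 15 of pregnancy, 100 to 200 islets per mouse, picked by hand and kept in culture overnight before poly(A) RNA was sequenced, with 1 library per mouse. In the 4 βPrlR+/- mice the prolactin receptor gene Prlr is deleted in β-cells by CreER, a tamoxifen-activated Cre recombinase driven by the Pdx1 promoter, whereas the 3 Prlr+/- mice lack 1 allele everywhere. A Prlr deletion in β-cells is thus carried by both groups, and the comparison asks what its loss elsewhere adds. The deletion was not matched in time, as tamoxifen induced it in adult βPrlR+/- mice and Prlr+/- mice carry it from the start of life. Only βPrlR+/- mice received tamoxifen, so that genotype, time of deletion, Cre and tamoxifen differ together and cannot be told apart. The titles of the βPrlR+/- mice read CkoWt, which the labels do not explain, so that their deletion rests on the label that names pancreatic β-cells as its tissue. The β-cell deletion is called homozygous in the design text of the series and heterozygous in the methods, which are followed here. Both groups were mated to wild type males, at 3 to 4 months of age by the design text, and the methods give an age of 4 to 5 months at study. The series has only these groups, without a group labelled as undeleted or non-pregnant. A lower value in Prlr+/- mice thus cannot be told from a higher value in βPrlR+/- mice.

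Insulin transcripts, from INS and Ins1, made up 46.1% to 53.2% of all TPM in βPrlR+/- mice and 54.0% to 58.9% in Prlr+/- mice, with no overlap. Median-ratio size factors were used to scale TPM between mice, giving scaled TPM. The targeted gene PRLR ranged in scaled TPM from 38.4 to 55.6 in βPrlR+/- mice and 35.05 to 51.1 in Prlr+/- mice. The groups overlapped. Summed markers of acinar cells, the exocrine cells around islets, ranged from 3496 to 30640 in scaled TPM over the mice, and overlapped between groups. The methods state the reads per sample, but TPM holds no reads per gene, so counting errors are not given. Fold changes are Prlr+/- minus βPrlR+/- of log2(scaled TPM + 1), a scale that shrinks differences between low values.

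Of the 10 genes, 9 had a log2 fold change below 0, against 48.3% of all genes tested, and their median was −0.40, against 0.0042 for all genes. These values include the 3 genes chosen for being lower. Of the 7 that were not, 6 were below 0 and 4 were lower without overlap, with a median of −0.36. This median includes NEFL, UCHL1 and KIF5A, which the study listed from the same mice. Of the 4 members not on that list, 1 was lower without overlap. Their log2 fold changes were −0.36 for GAP43, −0.21 for STMN3, −0.09 for NEFM and 0.16 for INA. In 7 of the 10, STMN2, PRPH, THY1, NEFL, GAP43, UCHL1 and KIF5A, every Prlr+/- mouse was below every βPrlR+/- mouse, which held for 3.11% of all genes tested. Of these, 6 are on the study's list from the same mice, the 3 chosen genes among them, and GAP43 is the remaining 1. With TPM scaled to its sum without the insulin genes, the number was 6. In STMN3, NEFM and INA the groups overlapped. None of the 7 genes that were not chosen by value had an adjusted p under 0.05 in limma, with the Benjamini-Hochberg method over 14840 genes, and 4 of them had an unadjusted p under 0.05, against 4.52% of all genes tested. Over all genes, 0.0674% had an adjusted p under 0.05, which is 10 genes. Of these, 9 were lower in Prlr+/- mice (0.0606%) and 1 was higher (0.00674%).

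**Figure D1:**
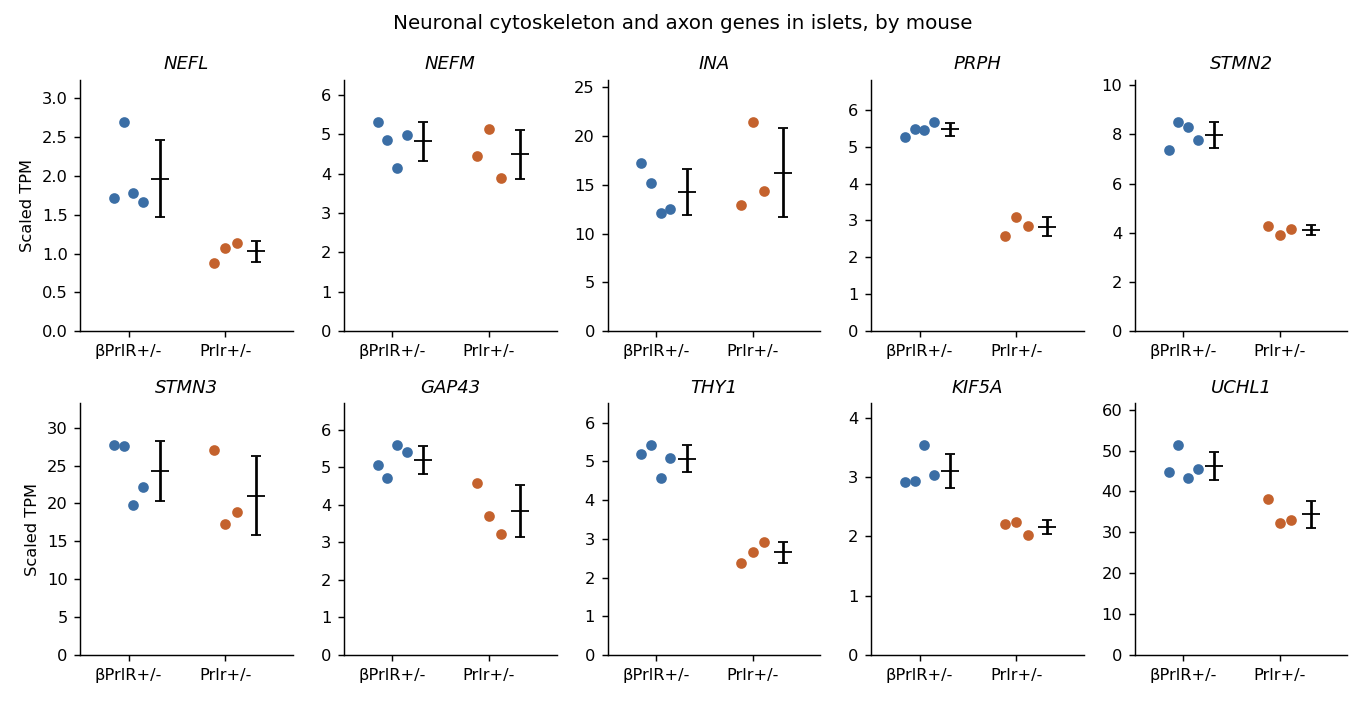
Scaled TPM of the 10 genes in each mouse, with a panel per gene and the axis starting at 0. Points are mice, and the black bar is the mean ± SD of 4 βPrlR+/- or 3 Prlr+/- mice. The groups are separate in 7 panels and overlap for NEFM, INA and STMN3.

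**Figure D2:**
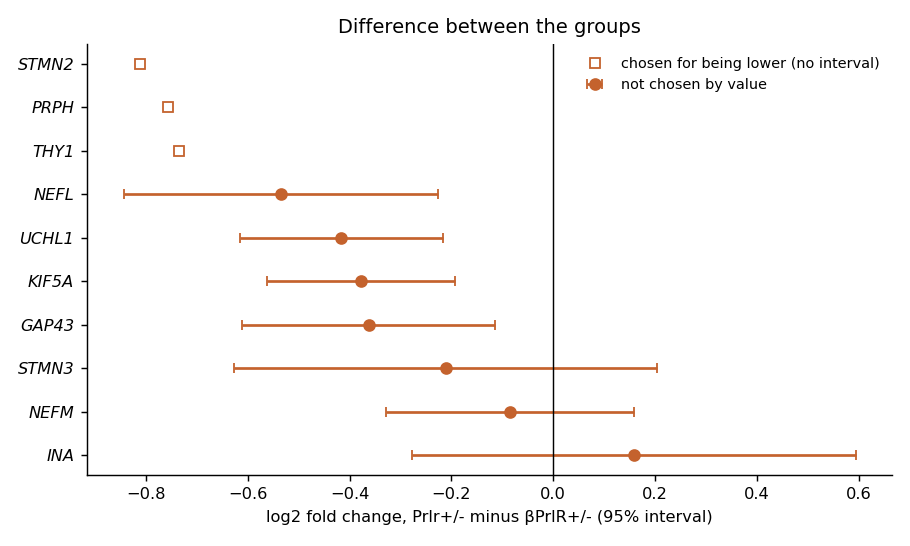
The log2 fold change of each gene. Filled circles are the 7 genes not chosen by value, with the 95% interval from limma, which includes 0 for STMN3, NEFM and INA. Open squares are the 3 genes chosen for being lower, drawn without an interval.

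Among the filament subunits, every Prlr+/- mouse was below every βPrlR+/- mouse in peripherin and the light chain, and the groups overlapped in the medium chain and α-internexin. PRPH, the intermediate filament of peripheral neurons, had scaled TPM values of 5.26, 5.49, 5.45 and 5.68 in the 4 βPrlR+/- animals, given here and below in the order of mouse 1 to 4, and 2.57, 3.09 and 2.85 in the 3 Prlr+/- animals, mouse 1 to 3. The highest Prlr+/- mouse was far below the lowest βPrlR+/- mouse, and the spread within each group was narrow. Its mean was 5.47 ± 0.170 (SD, n = 4) against 2.84 ± 0.263 (SD, n = 3), which gave −0.76 on the log2 scale (SE 0.070).

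NEFL, the light chain on which neurofilaments are built, was at 1.71, 2.70, 1.78 and 1.66 in the 4 βPrlR+/- animals and 0.883, 1.07 and 1.14 in the 3 Prlr+/- animals. The groups did not overlap, and βPrlR+/- mouse 2 stood well above the other three of its group. Its mean was 1.97 ± 0.492 (SD, n = 4) against 1.03 ± 0.133 (SD, n = 3), which gave −0.54 on the log2 scale (SE 0.13, limma adjusted p = 0.607, 0.417 to 1.0 over the alternative settings and with each mouse left out). Without βPrlR+/- mouse 2 the log2 fold change was −0.42. NEFL was on the study's list from these mice, so a low unadjusted p is no independent evidence (exact permutation test, two-sided, p = 0.0286, which 35 splits of 4 and 3 mice cannot go below).

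NEFM, the medium chain, whose gene lies next to Nefl on chromosome 14 in GRCm38.p6, was at 5.32, 4.84, 4.13 and 4.98 in the 4 βPrlR+/- animals and 4.45, 5.13 and 3.89 in the 3 Prlr+/- animals. The mice of the groups were intermixed. The log2 fold change was −0.09 with a 95% interval of −0.33 to 0.16 (adjusted p = 1.0 from limma, 0.590 to 1.0 over the alternatives), and it ran from −0.17 without Prlr+/- mouse 2 to −0.0062 without Prlr+/- mouse 3. NEFL at 1.97 and NEFM at 4.82 in βPrlR+/- mice show that the light chain was the lower of the pair, on a scale that accounts for transcript length.

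INA, or α-internexin, which forms filaments with the neurofilament chains, was at 17.2, 15.2, 12.1 and 12.5 in the 4 βPrlR+/- animals and 12.9, 21.5 and 14.3 in the 3 Prlr+/- animals. It was the only member with a higher mean in Prlr+/- mice, 16.2 ± 4.57 (SD, n = 3) against 14.3 ± 2.38 (SD, n = 4), and that order rested on Prlr+/- mouse 2. The log2 fold change was 0.16 with a 95% interval of −0.28 to 0.59 (adjusted p = 1.0 from limma, 0.880 to 1.0 over the alternatives), and it was −0.05 without that mouse.

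Among the filament genes of the members, PRPH and INA lie at the opposite ends in this comparison. The 250 bases before the start site of each are therefore shown, as RefSeq gives them for GRCm38.p6. Prph is on the plus strand at chr15:99054924-99055173 and Ina on the plus strand at chr19:47014431-47014680. Capitals mark matches, on either strand, to the motifs spelled out after them, and a GC box on the opposite strand appears as CCGCCC.
Prph: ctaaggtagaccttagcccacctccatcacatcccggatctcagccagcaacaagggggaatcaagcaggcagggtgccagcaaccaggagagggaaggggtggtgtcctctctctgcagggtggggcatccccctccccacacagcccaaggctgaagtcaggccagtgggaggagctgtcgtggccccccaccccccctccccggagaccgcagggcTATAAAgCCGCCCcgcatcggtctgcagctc
Ina: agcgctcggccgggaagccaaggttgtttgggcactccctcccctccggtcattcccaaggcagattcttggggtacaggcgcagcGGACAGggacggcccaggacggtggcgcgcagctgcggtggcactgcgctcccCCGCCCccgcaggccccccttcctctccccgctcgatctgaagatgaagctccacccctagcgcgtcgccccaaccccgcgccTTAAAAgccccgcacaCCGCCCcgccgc
In all, 7 motifs were searched on both strands in windows of 300 bases, these 250 and the next 50. TATAAA, the TATA box, was in the Prph window at position −31 and in 13.6% of all 32817 windows. TTAAAA was in the Ina window at −28 and in 19.2% of windows. GGGCGG, a GC box, was at −24 in Prph and at −111 and −12 in Ina, and was in 35.6% of windows. GGACAG, a core of the element bound by the repressor REST, was at −164 in Ina and in 22.2% of windows. CAGCACC, the other core of that element, CCAAT, and TTCNNNGAA, the spaced palindrome bound by STAT factors, were in neither window and were in 7.14%, 37.4% and 8.29% of all windows. None of the 7 motifs was in the windows of Stmn3 and Uchl1, the other members with a window in the table. A match is a string of letters and not a bound site.

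Of the stathmins, small proteins that bind free tubulin, STMN2 was lower in every Prlr+/- mouse and STMN3 overlapped. STMN2, a growth-associated stathmin of neurons, was at 7.36, 8.51, 8.30 and 7.76 in the 4 βPrlR+/- animals and 4.29, 3.91 and 4.14 in the 3 Prlr+/- animals. All Prlr+/- mice lay close together and far below the other group. Its mean was 7.98 ± 0.521 (SD, n = 4) against 4.11 ± 0.189 (SD, n = 3), which gave −0.81 on the log2 scale (SE 0.069).

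STMN3, a related neuronal stathmin, was at 27.7, 27.6, 19.8 and 22.2 in the 4 βPrlR+/- animals and 27.1, 17.3 and 18.8 in the 3 Prlr+/- animals. Prlr+/- mouse 1 reached the level of the highest βPrlR+/- mice, and the other two were below all mice of that group. The log2 fold change was −0.21 with a 95% interval of −0.63 to 0.20 (adjusted p = 1.0 from limma, 0.590 to 1.0 over the alternatives), and it was −0.40 without Prlr+/- mouse 1 and −0.09 without Prlr+/- mouse 2. The interval includes the log2 fold changes of NEFL and UCHL1 as well as 0.

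THY1, a glycoprotein of the axonal surface that is also found on T cells and fibroblasts, was at 5.20, 5.42, 4.58 and 5.09 in the 4 βPrlR+/- animals and 2.39, 2.66 and 2.91 in the 3 Prlr+/- animals. The groups were widely separate. Its mean was 5.07 ± 0.354 (SD, n = 4) against 2.65 ± 0.264 (SD, n = 3), which gave −0.73 on the log2 scale (SE 0.081). Summed T-cell markers were at 1.10 to 1.87 in βPrlR+/- mice and 1.11 to 1.46 in Prlr+/- mice, with CD3E and CD3G listed at 0 in some mice. Summed fibroblast and pericyte markers were at 44.2 to 59.3 and 33.6 to 49.6, with 5 of 6 tested genes below 0 and none separate between the groups. Most of that sum came from RGS5, at 27.2 to 47.7 over the mice, so that the sum says little of the other genes. The part of T cells, fibroblasts and pericytes in the THY1 difference was not tested.

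GAP43, a growth cone protein that is raised when axons grow or regenerate, was at 5.07, 4.73, 5.59 and 5.41 in the 4 βPrlR+/- animals and 4.60, 3.71 and 3.24 in the 3 Prlr+/- animals. The groups did not overlap, although Prlr+/- mouse 1 was close to βPrlR+/- mouse 2. Its mean was 5.20 ± 0.381 (SD, n = 4) against 3.85 ± 0.691 (SD, n = 3), which gave −0.36 on the log2 scale (SE 0.11, 95% interval −0.61 to −0.11). It did not pass the adjustment (adjusted p = 0.817 from limma, 0.495 to 1.0 over the alternatives), and the real split gave the largest difference of the 35 (two-sided exact permutation test, p = 0.0286, unadjusted). When TPM was scaled to its sum without the insulin genes, the groups overlapped in GAP43. Of the 7 members that were lower without overlap, GAP43 was the only one that was neither chosen for its values nor on the study's list.

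KIF5A, the heavy chain of the neuronal form of kinesin-1, was at 2.91, 2.94, 3.53 and 3.04 in the 4 βPrlR+/- animals and 2.20, 2.25 and 2.02 in the 3 Prlr+/- animals. The groups did not overlap. Its mean was 3.10 ± 0.291 (SD, n = 4) against 2.16 ± 0.122 (SD, n = 3), which gave −0.38 on the log2 scale (SE 0.079, limma adjusted p = 0.448, 0.355 to 1.0 over the alternatives). Like NEFL, it was on the study's list from these mice. Of its 2 transcripts, NM_001039000.4 held 77.7% of the gene's value and was at 2.34 to 2.75 against 1.40 to 1.77. The other, NM_008447.4, was at 0.575, 0.553, 0.784 and 0.610 in the 4 βPrlR+/- animals and 0.428, 0.844 and 0.408 in the 3 Prlr+/- animals, with overlap.

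UCHL1, an abundant deubiquitinating enzyme of neurons that is also present in endocrine cells, was at 44.8, 51.3, 43.3 and 45.5 in the 4 βPrlR+/- animals and 38.2, 32.2 and 32.9 in the 3 Prlr+/- animals. The groups did not overlap. Its mean was 46.2 ± 3.49 (SD, n = 4) against 34.4 ± 3.29 (SD, n = 3), which gave −0.42 on the log2 scale (SE 0.086, limma adjusted p = 0.438, 0.293 to 1.0 over the alternatives). It was on the study's list from these mice as well. The antisense gene Uchl1os was at 0.0368 to 0.232 over the 7 mice, far below UCHL1.

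The Prlr+/- means of STMN2, PRPH, THY1 and NEFL were 51.5% to 52.4% of the βPrlR+/- means. Those of GAP43, UCHL1 and KIF5A were 69.4% to 74.5%, and those of STMN3, NEFM and INA 86.6% to 114%. The percentages are ratios of group means in scaled TPM, and the ranges were formed after the values were seen. Abundance gave another order. UCHL1, STMN3 and INA had the highest means in both groups, in that order, and NEFL the lowest. In Prlr+/- mice STMN3 and INA overlapped, and INA was above STMN3 in mouse 2. In βPrlR+/- mice STMN2 came after INA, and PRPH, GAP43, THY1 and NEFM, at means of 5.47 to 4.82, overlapped from neighbour to neighbour. In Prlr+/- mice NEFM, STMN2 and GAP43 overlapped in this way, and PRPH and THY1 lay below them, so that NEFM was above STMN2, PRPH and THY1 in the means.

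The difference between relatives was also read within each mouse, where the scaling between mice cancels. The pairs were chosen after the values were seen, and 4 of them were tested with adjustment over the 4. That adjustment does not cover the choice, so the p-values of the ratios are no independent evidence. The ratio of NEFL to NEFM was 0.322, 0.558, 0.432 and 0.334 in the 4 βPrlR+/- animals and 0.198, 0.208 and 0.293 in the 3 Prlr+/- animals, lower in all 3 of the latter. Its log2 differed by −0.81 between the groups (two-sided exact permutation test, p = 0.0286, adjusted p = 0.0381). The adjusted value is as low as the design allows with 3 of 4 pairs at the smallest p, and NEFL was selected by the study in these mice, as were KIF5A and UCHL1.

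KIF5B, the ubiquitous kinesin-1 heavy chain, was at a mean of 52.5 ± 1.88 (SD, n = 4) against 54.3 ± 3.54 (SD, n = 3) in scaled TPM, with overlap. The ratio of KIF5A to KIF5B was 0.0554 to 0.0667 in βPrlR+/- mice and 0.0354 to 0.0438 in Prlr+/- mice, a log2 difference of −0.57 (exact permutation test, p = 0.0286, adjusted p = 0.0381). KIF5C, the other neuron-enriched chain, was at 10.6 ± 0.783 (SD, n = 4) against 9.14 ± 1.09 (SD, n = 3), and the ratio of KIF5A to it overlapped between the groups, with a log2 difference of −0.30 (exact permutation test, p = 0.143). UCHL3, a relative of UCHL1 found in most cells, was at 13.6 ± 1.15 (SD, n = 4) against 14.8 ± 0.753 (SD, n = 3). The ratio of UCHL1 to UCHL3 was 3.03 to 3.79 in βPrlR+/- mice and 2.06 to 2.67 in Prlr+/- mice, a log2 difference of −0.54 (exact permutation test, p = 0.0286, adjusted p = 0.0381). PRPH to INA and STMN2 to STMN3, whose numerators were chosen for being lower, differed by −1.12 and −0.73 in log2 and were not tested.

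**Figure D3:**
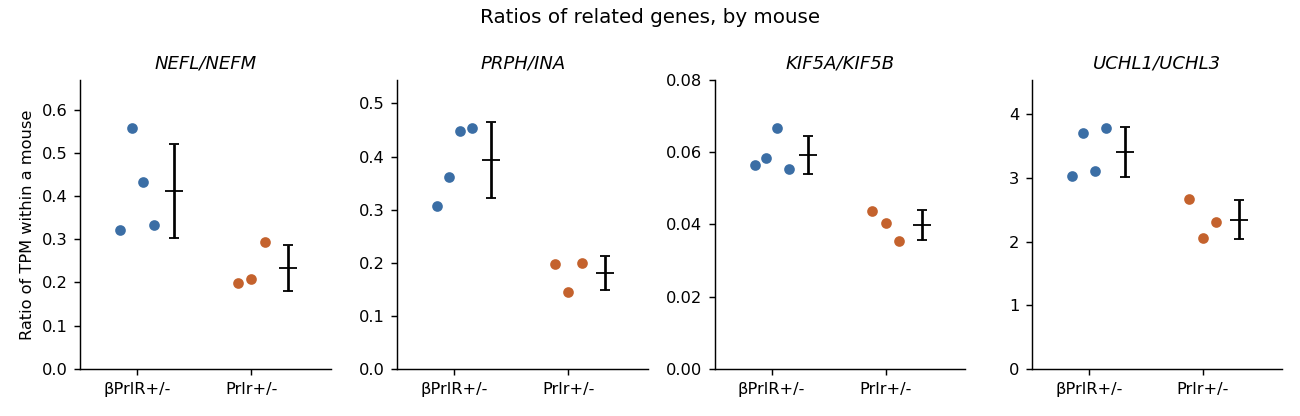
Ratio of TPM within each mouse for NEFL/NEFM, PRPH/INA, KIF5A/KIF5B and UCHL1/UCHL3, with axes starting at 0. Points are mice and the black bar is the mean ± SD of the ratios. The Prlr+/- mice lie below all βPrlR+/- mice in each panel, as in NEFL/NEFM with 0.198 to 0.293 against 0.322 to 0.558. PRPH/INA is shown without a test. KIF5A/KIF5C, which overlapped at 0.261 to 0.324 against 0.206 to 0.285, is not drawn.

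Most of these genes were read from a single transcript. PRPH had 5 listed transcripts, of which NM_001163589.1 accounted for 93.6% to 96.0% of PRPH in each mouse and was at 4.99 to 5.38 in βPrlR+/- mice and 2.46 to 2.96 in Prlr+/- mice. The other 8 members had 1 transcript each. With the most abundant transcript in place of the gene, 7 members were again separate between the groups.

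Over the 7 mice, the mean of the members' standardized values was most like HTR3A, a serotonin receptor channel (Pearson r = 0.97), DNM1, a neuronal dynamin (0.97), Gm5124 (0.97), CHRNA3, a nicotinic receptor subunit of autonomic ganglia (0.97), and NRIP3 (0.96). HTR3A, DNM1 and CHRNA3 are on the study's list from these mice. These correlations have 7 points that share the 2 groups and are descriptions. HTR3A was at a mean of 1.53 against 0.650, and CHRNA3 at 1.36 against 0.659. Among the members, r to the same profile, of which each is a part, was 0.94 for STMN2, PRPH and THY1, 0.93 for UCHL1 and −0.12 for INA. Once each group was centred on its own mean, the most similar genes were C8orf48, SYTL3, D330050I16Rik, LRRC55 and DNAJC28, with r of 0.95 to 1.0, and r for the members ran from −0.19 for KIF5A to 0.67 for NEFL. The 5 genes of the first set and the 5 of the second did not coincide.

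Other genes of the cytoskeleton and axon were taken as 6 lists with 100 genes. Of these, 99 were in the table and 93 were tested. None had an adjusted p under 0.05 (limma), 11 had an unadjusted p under 0.05, against 4.52% of all genes tested, and 55 had a log2 fold change below 0, with a median of −0.01 against 0.0042 for all genes. Of the 93, 12 were lower in every Prlr+/- mouse, against 3.11% of all genes tested, and 1, MAPRE1, was higher in every one, against 1.84%. Of the 12, 5 are on the study's list from these mice (TUBB2B, TUBB3, DCLK1, DPYSL3 and CHL1), and 7 of the 88 tested genes outside that list were lower without overlap.

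The list of growth cone and axonal membrane proteins had the lowest median. Of its 21 tested genes, 18 were below 0 and 5 were lower without overlap, with a median of −0.11. BASP1, a growth cone protein of the same class as GAP43, was at 7.43, 11.7, 14.5 and 13.3 in the 4 βPrlR+/- animals and 7.30, 5.0 and 6.24 in the 3 Prlr+/- animals, which gave −0.80 on the log2 scale (SE 0.22, limma adjusted p = 0.723, 0.141 to 1.0 over the alternatives). Its lowest βPrlR+/- mouse and highest Prlr+/- mouse nearly met. TAGLN3, a neuronal actin-binding protein, was at a mean of 2.10 against 1.47 with overlap, and SPTBN1, a β-spectrin and the most abundant gene of the list, was at 33.4 against 31.3 with overlap.

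Among 12 tested tubulins, the subunits of microtubules, 3 were lower without overlap and the median was 0.02. The neuronal β-tubulin TUBB3 was at 19.9, 24.9, 22.0 and 22.4 in the 4 βPrlR+/- animals and 16.4, 15.4 and 16.2 in the 3 Prlr+/- animals, which gave −0.45 on the log2 scale (SE 0.078, limma adjusted p = 0.247, 0.141 to 0.891 over the alternatives). TUBB2B, a β-tubulin of developing neurons, was at a mean of 3.27 against 1.96, which gave −0.53 on the log2 scale (limma adjusted p = 0.591, 0.388 to 1.0 over the alternatives). TUBA1A, the most abundant, was at 117 against 111 with overlap, and reads of near-identical tubulins may be divided unevenly between them.

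Of 12 tested intermediate filament genes outside the members, 5 were below 0 and 1, SYNM, was lower without overlap, with a median of 0.01. VIM, the filament of mesenchymal and glial cells, was at a mean of 9.85 against 7.21, and KRT19, of duct cells, at 1.07 against 1.41. KRT7, the most abundant of the list, was at 230 against 220, and the groups overlapped in each of these. NEFH, the heavy neurofilament chain, named here after its values were seen, was at 3.15 ± 0.188 (SD, n = 4) against 3.21 ± 0.796 (SD, n = 3), so that of the 3 neurofilament chains the light chain alone was separate between the groups.

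Of 21 tested stathmins and microtubule-associated proteins, 15 were below 0, with 2 lower and 1 higher without overlap and a median of −0.05. TPPP3, a microtubule-bundling protein, was at a mean of 12.1 against 8.98, which gave −0.41 on the log2 scale (limma adjusted p = 0.837, 0.265 to 1.0 over the alternatives), and DCLK1, a doublecortin-like kinase, was at 1.59 against 1.04. MAPRE3, a microtubule end-binding protein and the most abundant, was at 45.3 against 46.6 with overlap. Of 24 tested kinesins, dyneins and adaptors, 11 were below 0, and DYNC1I1, a neuronal dynein chain at 2.38 against 1.93, was the only one lower without overlap. DYNLL2, the most abundant, was at 162 against 177 with overlap. Of the 3 ubiquitin hydrolases related to UCHL1, none was separate, and BAP1 was at 17.1 against 17.8.

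**Figure D4:**
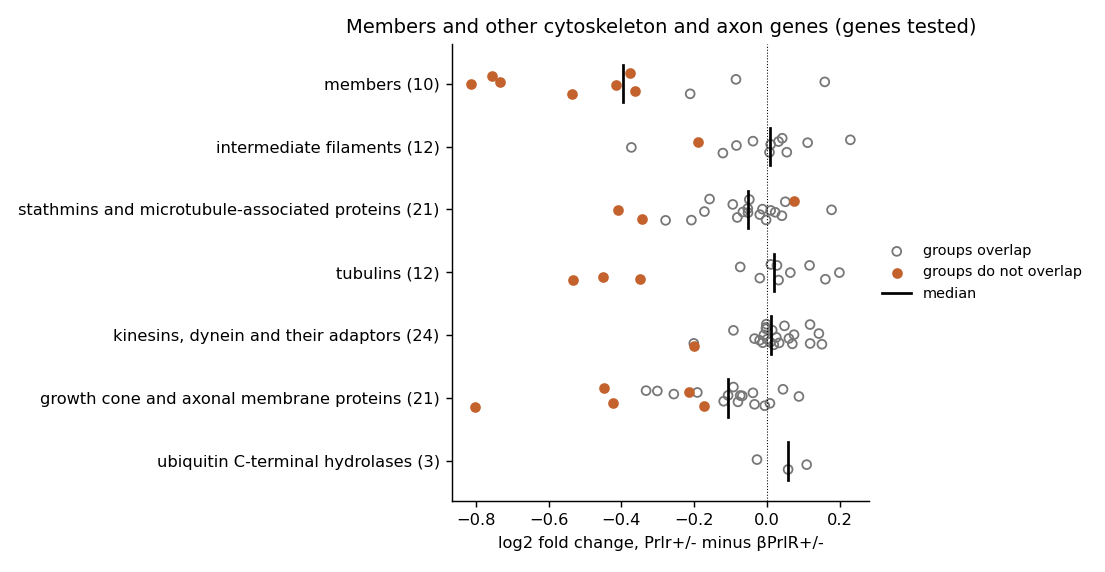
The log2 fold change of the members and of the tested genes of 6 other lists, with the number of genes in parentheses. Each circle is a gene, filled where the groups did not overlap, and the black line is the median of the list. The members' median is −0.40 with the genes chosen for being lower and −0.36 over the 7 that were not. Of these 7, NEFL, UCHL1 and KIF5A are on the study's list from the same mice, so that this median is not free of selection. GAP43, STMN3, NEFM and INA, which are not on it, were at −0.36, −0.21, −0.09 and 0.16. The medians of the lists run from −0.11 to 0.06. Vertical scatter within a row carries no value.

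Markers of cell types were read beside these genes. Of 14 neuron markers in the table, 8 were lower in every Prlr+/- mouse, 5 of which are on the study's list and 3 of which, NPY, CHAT and ELAVL3, are not. Of the 11 that were tested, 6 were lower in this way, against 3.11% of all genes tested. These 6 include the 5 on the study's list from these mice, so that the share is no independent evidence. Among the tested markers outside that list, only NPY was lower without overlap, ELAVL4 was higher, and TH, RBFOX3, SNAP25 and VIP overlapped. The summed scaled TPM of the 14 was 204 to 364 in βPrlR+/- mice and 175 to 234 in Prlr+/- mice. Most of the sum came from VIP, SNAP25, NPY and TH, so that it says little of the other 10. NPY and VIP are neuropeptides that islet cells other than neurons may also make. NPY was at 32.8, 62.4, 32.8 and 32.9 in the 4 βPrlR+/- animals and 26.8, 22.5 and 25.1 in the 3 Prlr+/- animals, without overlap. VIP was at 45.2 to 158 against 43.0 to 68.3, with overlap.

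The autonomic transcription factors PHOX2A and HAND2 were at 48.7% and 55.9% of the βPrlR+/- mean. The cholinergic genes CHAT, SLC18A3 and SLC5A7 were at 45.4% to 46.7%, and ELAVL3, a neuronal RNA-binding protein, at 55.2%. CHAT and ELAVL3 are not on the study's list, although ELAVL3 was measured in the study by another assay. They were at 0.202 to 0.282 against 0.0776 to 0.129 and 0.238 to 0.311 against 0.135 to 0.160 and lay under the limit for testing. SNAP25 and TH, which endocrine cells also express, were at 89.4% and 93.0% with overlap, RBFOX3 was at 98.7%, DBH, an enzyme of noradrenaline synthesis, was at 40.2% with overlap and under the limit for testing, and ELAVL4 was higher in every Prlr+/- mouse, at 123%. None of the 14 was listed at 0 in a mouse, and none of the 11 tested had an adjusted p under 0.05. The part of neuron number in the members' values was not tested.

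Summed markers of Schwann cells and glia were at 25.4 to 29.3 in βPrlR+/- mice and 22.0 to 28.9 in Prlr+/- mice, with 5 of 7 tested genes below 0. Of the 10 in the table, S100B and GFAP, at 51.9% and 47.0% of the βPrlR+/- mean, were lower without overlap, and GFAP lay under the limit for testing. Endothelial markers were at 147 to 183 against 124 to 156, with 6 of 6 below 0 and 2 separate. Markers of δ- and PP-cells were at 18137 to 21217 against 15710 to 17368, with separate sums and 4 of 4 below 0, although no single gene was separate. Those of α-cells were at 15169 to 23002 against 15203 to 15712, and those of macrophages at 21.8 to 67.0 against 40.9 to 59.8, both with overlap. No β-cell marker was below 0, of 9 tested, and none was separate between the groups. The part of these cells in the members' values was not tested.

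**Figure D5:**
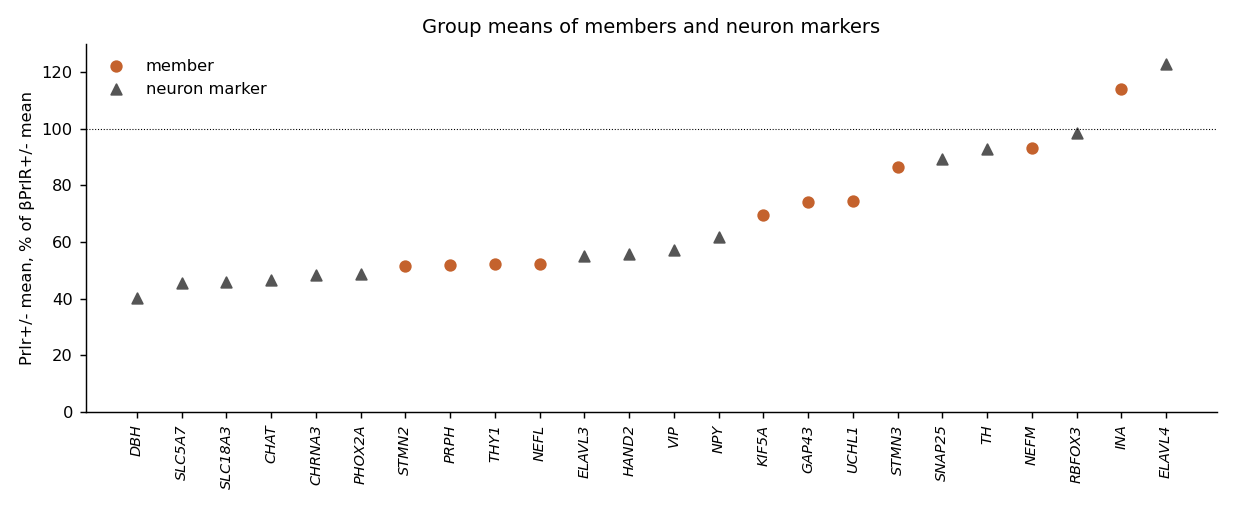
Prlr+/- mean as a percentage of the βPrlR+/- mean, from scaled TPM, for the 10 members and 14 neuron markers in rising order, with the dotted line at 100%. STMN2, PRPH, THY1 and NEFL, at 51.5% to 52.4%, lie between PHOX2A and ELAVL3, and NEFM and INA lie among TH, RBFOX3 and ELAVL4. STMN2, PRPH, THY1, NEFL and PHOX2A are on the study's list from these mice, so that their closeness is no independent evidence. Bars of error are not drawn, and 4 and 3 mice stand behind each mean.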

How the data were processed

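Islet RNA of 7 mice was analysed, 4 βPrlR+/- and 3 Prlr+/-, grouped by the labels, which name the tissue with the deletion. Poly(A) RNA went into strand-specific libraries, which the authors quantified with kallisto 0.42.4 (submitters' processing notes) and deposited as TPM for 34082 genes and 107384 transcripts. The methods name FPKM, but the deposited table sums to 1000000 in every mouse and was handled as TPM. TPM holds no reads per gene, and p-values measure the spread between mice. No genome build is given in the sources used here. RefSeq GRCm38.p6 served for promoters and neighbours only, and 4 members had a promoter in its table.

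TPM was divided by median-ratio size factors, computed from genes whose mean TPM was 0.5 or more and which had no zero. The same minimum mean applied to testing, for which limma 3.58.1 (R 4.3.3) was fitted to log2(scaled TPM + 1) with a mean-dependent variance, Benjamini-Hochberg adjustment and a threshold of 0.05. For single values an exact permutation test, two-sided, ran over the 35 splits. The fit was tested on simulated data. Of each list were named the 2 genes with the largest absolute fold change at a mean of at least 1, the most abundant gene and any gene with an adjusted p under 0.05, and the 5 genes most like the members over the mice. Chosen after their values were seen were HTR3A and CHRNA3 for means, single markers, MAPRE1, DPYSL3, CHL1, SYNM, NEFH and KIF5B, and the within-mouse ratios. Members and lists were chosen with earlier results of these data known. TUBB5, INS2, LYZ2 and CTRB1 had no row of that name. Python 3.11.15 and matplotlib 3.10.9 drew the figures. A further gene of the neuron marker list was left out of the counts, sums and figure and is not reported here.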

Additional observations from a re-analysis of the deposited data

Results flagged for a closer look

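NEFL stood out in 1 βPrlR+/- mouse. Mouse 2 was at a scaled TPM of 2.70 and the other three at 1.66 to 1.78, so that its gap to the nearest mouse was 0.882 of the group's range, above Dixon's critical value for 4 mice. Of 37 such groups of values tested this was the only one, where chance flags about 1 in 20. The 37 did not cover every gene printed here. NPY, which was not among them, was at 62.4 in the same mouse and at 32.8 to 32.9 in the other βPrlR+/- mice.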

How the results depend on the processing

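In 12 of 14 alternatives, 7 members were lower without overlap. The exceptions were 6 with TPM scaled to the sum without insulin genes, where GAP43 overlapped, and 8 without Prlr+/- mouse 1, where STMN3 joined them, and the other cytoskeleton and axon genes lower without overlap numbered 10 to 18, against 12. Of all genes, 3.11% were lower without overlap in the main fit and 2.51% with TPM scaled to the sum without insulin genes. The share was 8.42% with deposited TPM, 5.72% without Prlr+/- mouse 1 and 4.10% to 8.34% over the fits that leave out a mouse. The median log2 fold change of the members was −0.52 with deposited TPM, a setting that put all genes at a median of −0.12, and −0.48 to −0.37 over the fits that leave out a mouse. The number of members with an adjusted p under 0.05 (limma), which is no test because the 3 counted were chosen by these values, was 0 after scaling without insulin genes or with no filter, and 0 to 1 with a mouse left out, while their fold changes lay between −0.85 and −0.68 in these fits. Over all genes 10 had an adjusted p under 0.05, against 6 with upper-quartile scaling, 5 without insulin genes, 4 with no filter, 18 with a pseudocount of 0.1 and 2 to 13 with a mouse left out. STMN2 was at −0.94 both with TPM as deposited and with the pseudocount of 0.1, PRPH at −0.87 and −0.93, and THY1 at −0.85 and −0.91. INA ran from −0.047 without Prlr+/- mouse 2 to 0.30 without Prlr+/- mouse 1. For these the cause was not tested. Of 140 fold changes of members under the alternatives, 127 were below 0. The ratio pairs, chosen after seeing the data, did not change sign with a mouse left out, but with 6 mice no exact permutation p under 0.05 can be had. No paired analysis was possible because no animal number in the titles is shared between the groups, and the mouse numbers used here follow accession order. Without reads per gene, counting error could not be set beside low values.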
